A study of Homo sapiens with 2 samples.

Results

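The glypicans and syndecans are the main families of heparan sulfate proteoglycans held on the cell surface, and their transcripts were compared between 2 human cell lines. The members were the 6 glypican genes GPC1 to GPC6 and the 4 syndecan genes SDC1 to SDC4, matched by symbol in both gene tables, and they made up 10 of the 57820 genes listed. HepG2, labelled as hepatocellular carcinoma with wild-type (WT) genotype, and SKHEP1, labelled as endothelial cells with WT genotype, were grown unmodified in the same serum-supplemented medium, and each gave 1 poly(A)-selected, stranded RNA-seq library. Each line having a lone library, the differences below carry no replicate check and no test. The intervals below are at 95% and cover counting error only; amplified reads carry no molecular identifiers here and are not independent molecules. Fewer cells expressing a gene and less RNA per cell cannot be told apart in such libraries.

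A heparan sulfate proteoglycan is a core protein to which long, sulfated sugar chains are attached in the Golgi apparatus. Glypicans are tethered to the outer leaflet of the membrane by a glycosylphosphatidylinositol (GPI) anchor, whereas syndecans span the membrane and carry a short cytoplasmic tail that binds cytoskeletal and sorting proteins. Through their chains both bind growth factors, morphogens such as Wnt and hedgehog proteins, and matrix proteins. In the liver GPC3 is a fetal gene that is commonly re-expressed in hepatocellular carcinoma, and syndecan-1 on hepatocytes takes up triglyceride-rich lipoproteins.

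The libraries held 22477743 rounded counts in HepG2 against 19940562 in SKHEP1, and 13418 genes in HepG2 and 13846 in SKHEP1 reached 10 counts. All 10 hepatocyte markers examined reached 10 counts in HepG2, with a summed level of 47817 transcripts-per-million (TPM), against 1 of 10 and 96.2 TPM in SKHEP1, where 8 of the 10 were at 0. Of 12 endothelial markers, 4 reached 10 counts in HepG2 against 5 in SKHEP1, with summed levels of 7.96 and 78.4 TPM. The endothelial markers were mixed in SKHEP1. KDR, ERG, EMCN and CLEC14A were at 0 in both lines, and CDH5 had 5 counts in HepG2 against 1 in SKHEP1. ENG had 18 in HepG2 and 1926 in SKHEP1, ROBO4 4 and 343, EGFL7 5 and 178, and TEK 0 and 5. ESAM went the other way, with 144 counts in HepG2 and 16 in SKHEP1. VWF had 14 in HepG2 and 4 in SKHEP1, and TIE1 18 and 10. ESAM alone gave 6.29 TPM of the HepG2 sum, and ENG alone 53.3 TPM of the SKHEP1 sum.

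The members divided sharply between the lines. HepG2 was marked by GPC3, SDC2 and GPC6 and SKHEP1 by SDC3, while SDC1 and SDC4 were abundant in both. A gene was compared where an expected count of at least 10 was reached in either library, and was counted as higher in a line where its count, scaled to the TMM effective library size, was at least 4-fold that of the other line. Of the 10 members 8 were compared, namely 5 with at least 10 counts in both libraries and 3 (GPC3, GPC4 and SDC2) that reached 10 counts in HepG2 alone. GPC2 and GPC5 were under 10 counts in both. Of the 8, 3 were at least 4-fold higher in HepG2, against a background of 13.0% of the 15436 genes compared. At least 4-fold higher in SKHEP1 was 1 member, against a background of 16.5%. The members that passed the minimum through HepG2 alone could only be higher there or undecided, so these counts describe the 2 libraries and do not set the families apart from other genes.

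**Figure D1:**
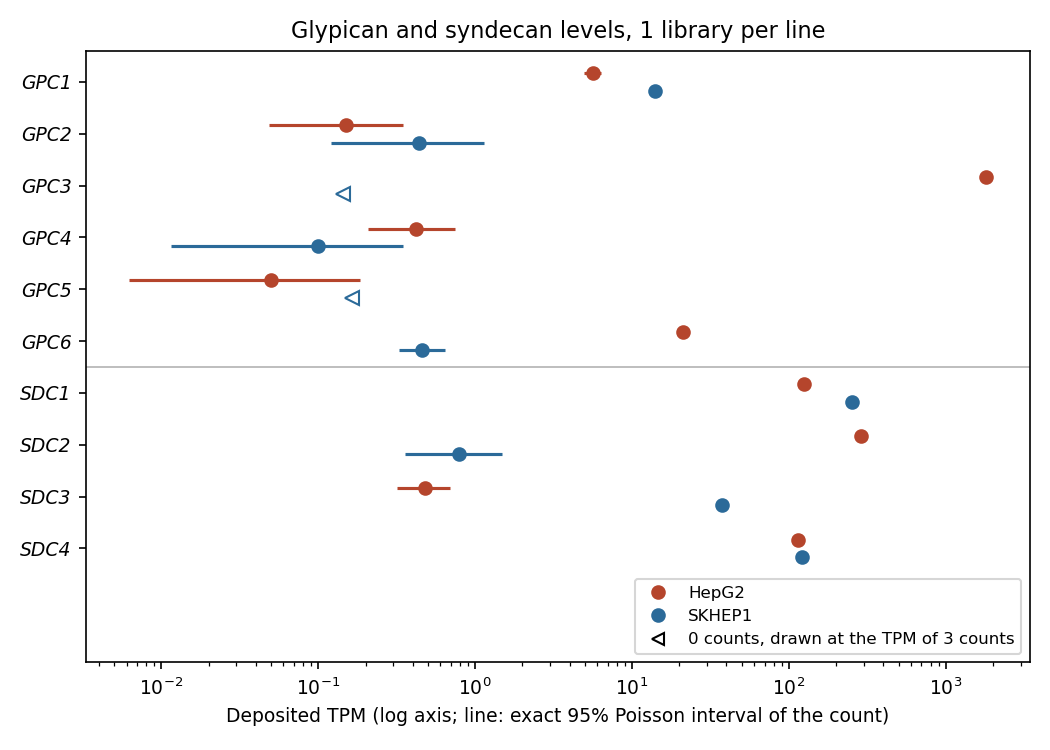
Deposited TPM of each glypican and syndecan gene (log axis) in HepG2 and SKHEP1, with 1 point per library and the exact 95% Poisson interval of the count as a line. GPC3 stood at 1811 TPM in HepG2 and at 0 counts in SKHEP1, and SDC2 and SDC3 lay far apart in opposite directions, while SDC4 nearly coincided.

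Among the glypicans, GPC3 (ENSG00000147257.9, chromosome X) had 48686 counts in HepG2 against 0 in SKHEP1. Its level was 1811 TPM in HepG2 (interval 1795 to 1827), and the 0 counts in SKHEP1 allow a level of up to 0.143 TPM, taking 3 counts as the limit. GPC3 encodes glypican-3, which binds Wnt and hedgehog proteins and is used as a histological marker of hepatocellular carcinoma. It ranked 83 by TPM among the 13418 genes with 10 or more counts in HepG2. Against a floor of 3 counts in the SKHEP1 library it was 14781-fold higher in HepG2, and the exact lower limit of the ratio was 12021.

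GPC6 (ENSG00000183098.6, chromosome 13) was the other glypican higher in HepG2. It had 1921 counts in HepG2 against 37 in SKHEP1, a ratio of 47.3 (interval 34.2 to 67.4), and its levels were 21.2 and 0.46 TPM. GPC6 encodes glypican-6, whose loss in humans causes the skeletal disorder omodysplasia. Although GPC6 differed widely between the lines, in HepG2 it was a minor glypican: GPC3 stood 85.5-fold above it by TPM there.

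GPC1 (ENSG00000063660.4, chromosome 2) went the other way, though by less than 4-fold. It had 260 counts in HepG2 against 577 in SKHEP1, which was 2.44-fold higher in SKHEP1 after scaling (interval 2.10 to 2.83). Its levels were 5.62 TPM in HepG2 and 14.0 TPM in SKHEP1. GPC1 encodes glypican-1, a binder of fibroblast growth factors that is found in many tissues, and it was the leading glypican of SKHEP1.

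The remaining glypicans were at or near the limit of detection. GPC4 (ENSG00000076716.7, chromosome X), whose product was first described in kidney and brain, had 11 counts in HepG2 against 2 in SKHEP1. The raw ratio was 5.01, but its interval ran from 1.09 to 46.5, and with 2 counts set to the floor of 3 GPC4 was not counted as 4-fold higher. GPC2 (ENSG00000213420.3, chromosome 7), a glypican of developing neurons, had 5 counts in HepG2 against 4 in SKHEP1. GPC5 (ENSG00000179399.9, chromosome 13) had 2 counts in HepG2 against 0 in SKHEP1. Neither of the last pair gave a difference detectable at this depth.

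Among the syndecans, SDC2 (ENSG00000169439.7, chromosome 8) had 6774 counts in HepG2 against 9 in SKHEP1. The scaled ratio was 686 (interval 361 to 1500), and the levels were 287 TPM in HepG2 and 0.79 TPM in SKHEP1. SDC2 encodes syndecan-2, once called fibroglycan, a syndecan of mesenchymal cells and of liver. By TPM alone its ratio was 363, because the isoform-weighted length of the gene was 1829 bases in HepG2 and 1093 bases in SKHEP1, the SKHEP1 length resting on 9 counts.

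SDC3 (ENSG00000162512.11, chromosome 1) showed the opposite pattern, with 28 counts in HepG2 against 1978 in SKHEP1. It was higher in SKHEP1 by 77.6-fold (interval 53.5 to 117), at 0.48 TPM in HepG2 and 37.2 TPM in SKHEP1. SDC3 encodes syndecan-3, best known from the nervous system and from muscle progenitors. Thus each line held a syndecan that the other had at 28 counts or fewer.

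SDC1 and SDC4 were present at high levels in both lines. SDC1 (ENSG00000115884.6, chromosome 2), which encodes the epithelial and plasma cell syndecan CD138, had 5311 counts in HepG2 against 9473 in SKHEP1. It was higher in SKHEP1 by 1.96-fold (interval 1.89 to 2.03), at 124 TPM in HepG2 and 253 TPM in SKHEP1. SDC4 (ENSG00000124145.5, chromosome 20), which encodes the syndecan of focal adhesions, had 3544 counts in HepG2 against 3614 in SKHEP1. It was 1.12-fold higher in SKHEP1 (interval 1.07 to 1.17), the smallest gap among the 8 members compared. The syndecan expressed in the line labelled carcinoma and in the line labelled endothelial at nearly the same level was therefore SDC4, at 114 TPM in HepG2 and 122 TPM in SKHEP1.

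**Figure D2:**
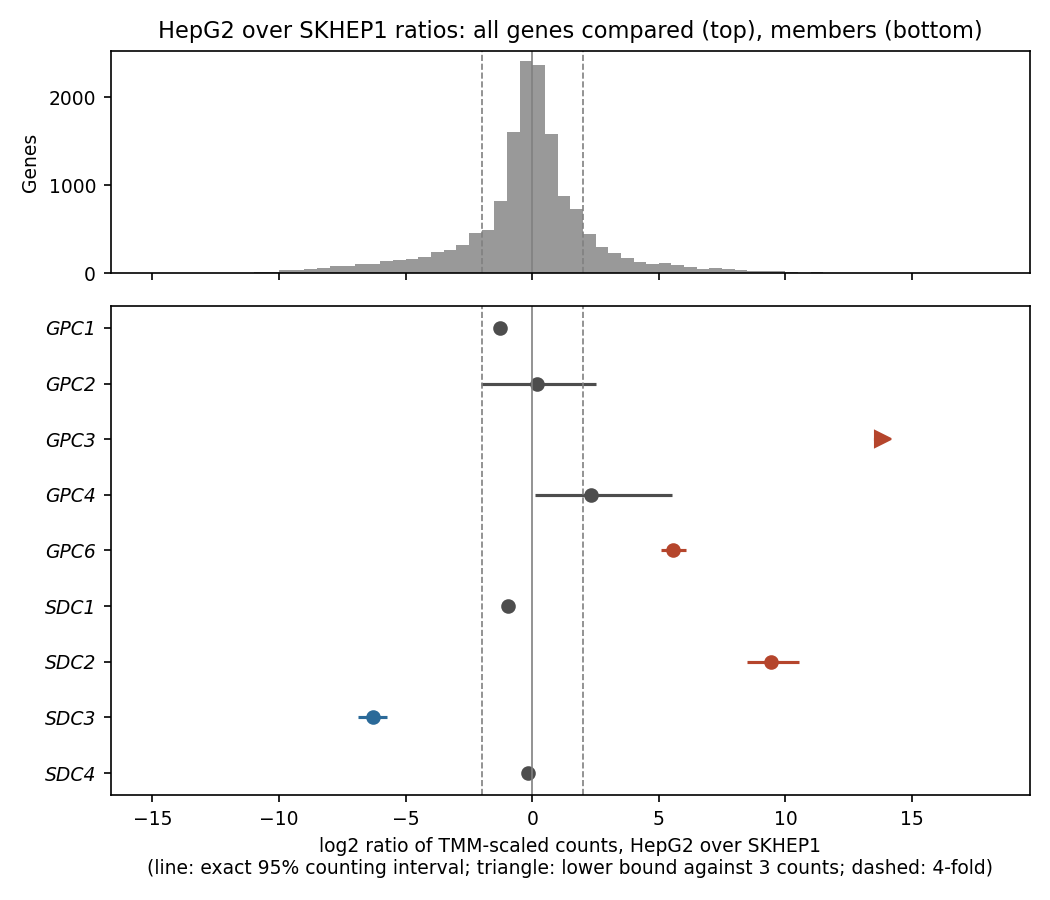
Log2 ratios of TMM-scaled counts, HepG2 over SKHEP1, for all 15436 genes compared (histogram, top) and for the members (bottom), with exact 95% counting intervals as lines and the 4-fold limits dashed. GPC3 (a lower bound, triangle), SDC2 and GPC6 lie beyond the limit on the HepG2 side and SDC3 beyond it on the SKHEP1 side. The point of GPC4 is its raw ratio, which rests on 2 counts in SKHEP1, and GPC5 has no ratio.

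Ranked by TPM within HepG2, GPC3 came first at 1811, followed by SDC2 at 287, SDC1 at 124, SDC4 at 114, GPC6 at 21.2 and GPC1 at 5.62. The counting intervals of these 6 did not overlap, those of SDC1 (121 to 128) and SDC4 (110 to 118) lying closest. SDC3 (0.48 TPM), GPC4 (0.42 TPM), GPC2 (0.15 TPM) and GPC5 (0.05 TPM) followed, and each of them overlapped with the next. In SKHEP1 the order was SDC1 at 253 TPM, SDC4 at 122, SDC3 at 37.2 and GPC1 at 14.0, with intervals that did not overlap. SDC2 (0.79 TPM), GPC6 (0.46 TPM), GPC2 (0.44 TPM) and GPC4 (0.10 TPM) each had an interval that overlapped with the next, and GPC3 and GPC5 were at 0.

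Summed over each family, the glypicans stood at 1839 TPM in HepG2 and 15.0 TPM in SKHEP1, a TPM ratio of 123, and the syndecans at 526 TPM in HepG2 and 413 TPM in SKHEP1, a ratio of 1.27. The glypican gap rested on GPC3, since the other 5 glypicans summed to 27.4 TPM in HepG2 and 15.0 TPM in SKHEP1, a ratio of 1.83. GPC3 made up 98.5% of the glypican TPM in HepG2 and 0% in SKHEP1, while GPC1 made up 0.306% in HepG2 and 93.3% in SKHEP1. Of the syndecan TPM, SDC2 took 54.6% in HepG2 and 0.191% in SKHEP1, SDC1 took 23.7% in HepG2 and 61.3% in SKHEP1, SDC4 took 21.7% in HepG2 and 29.5% in SKHEP1, and SDC3 took 0.0913% in HepG2 and 9.01% in SKHEP1. Without SDC2 the remaining syndecans summed to 239 TPM in HepG2 and 413 TPM in SKHEP1, so that the direction of the syndecan sum turned on that gene. Within HepG2 the glypican sum was 3.50-fold the syndecan sum, and within SKHEP1 the syndecan sum was 27.6-fold the glypican sum.

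**Figure D3:**
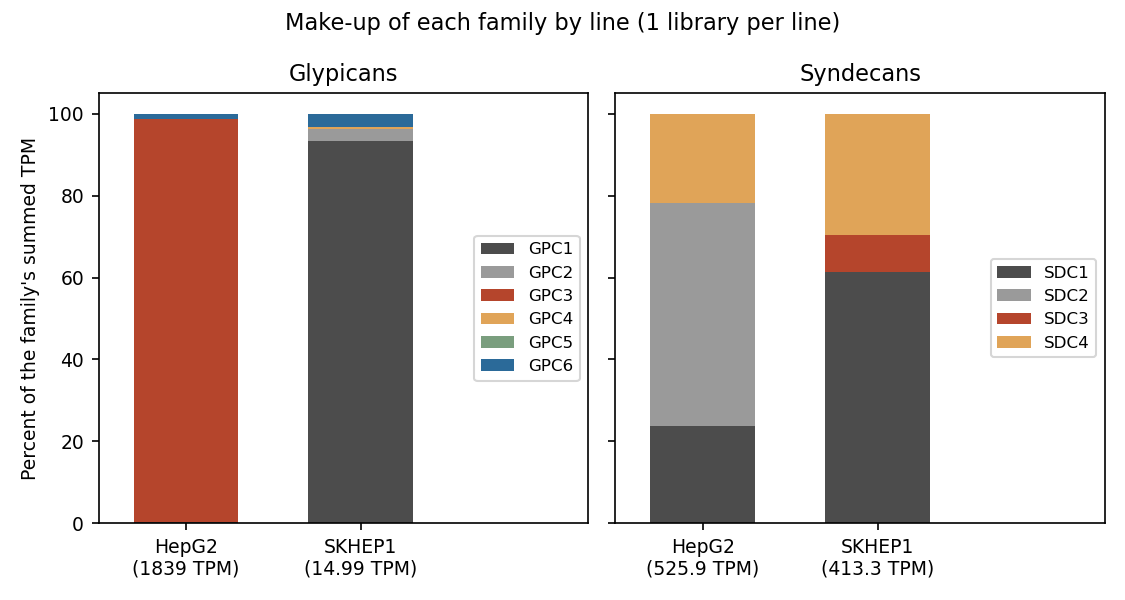
Share of each member in the summed TPM of its family (percent, stacked bars) in HepG2 and SKHEP1, with the summed TPM under each bar. GPC3 filled 98.5% of the glypican bar in HepG2 and GPC1 93.3% of that in SKHEP1, and SDC2 took 54.6% of the syndecan bar in HepG2 and 0.191% in SKHEP1.

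The genes closest in level to GPC3 and SDC2, the members with the largest ratios, were sought by Euclidean distance on log2(CPM + 1) over the 2 libraries, where CPM is counts-per-million of the effective library size. For GPC3 these were ITIH2 (distance 0.04), APOH (0.14) and AHSG (0.33), which encode plasma proteins made by hepatocytes. They had 47486, 53756 and 61152 counts in HepG2 and were all at 0 in SKHEP1. For SDC2 these were C4B (0.18), DUSP9 (0.27) and SERPINF2 (0.34), with 7624, 6110 and 7130 counts in HepG2 and 8, 14 and 3 in SKHEP1. C4B shares reads with the near-identical C4A and is uncertain. With 2 libraries this measure compares 2 levels only.

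Promoter sequences were set beside these levels for members of each kind: GPC6, higher in HepG2; SDC3, higher in SKHEP1; SDC4, alike in both; and GPC4, near the detection limit in both. They are the 250 bases before the RefSeq gene start in GRCh38.p14, a later build than the hg19 of the expression files, written 5′ to 3′ on the gene's strand. Capitals mark the GC box GGGCGG, the core of the Sp1 binding site, on either strand, with overlapping copies run together.
GPC6, chr13:93226557-93226806, plus strand: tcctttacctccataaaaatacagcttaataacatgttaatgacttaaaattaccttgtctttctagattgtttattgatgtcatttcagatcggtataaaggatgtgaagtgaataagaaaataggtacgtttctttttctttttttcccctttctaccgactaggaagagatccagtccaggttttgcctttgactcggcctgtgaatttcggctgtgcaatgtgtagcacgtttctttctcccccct
SDC3, chr1:30908759-30909008, minus strand: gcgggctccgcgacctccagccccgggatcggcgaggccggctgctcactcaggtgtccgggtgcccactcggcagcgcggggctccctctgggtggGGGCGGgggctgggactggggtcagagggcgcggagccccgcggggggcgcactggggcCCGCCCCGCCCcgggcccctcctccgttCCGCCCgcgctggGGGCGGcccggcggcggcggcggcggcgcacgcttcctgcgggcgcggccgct
SDC4, chr20:45348425-45348674, minus strand: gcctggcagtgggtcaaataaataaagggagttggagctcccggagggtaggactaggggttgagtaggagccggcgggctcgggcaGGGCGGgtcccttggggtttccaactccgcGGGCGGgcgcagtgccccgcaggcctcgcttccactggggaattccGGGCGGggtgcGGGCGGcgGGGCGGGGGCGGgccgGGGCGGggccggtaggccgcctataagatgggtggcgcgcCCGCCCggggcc
GPC4, chrX:133415490-133415739, minus strand: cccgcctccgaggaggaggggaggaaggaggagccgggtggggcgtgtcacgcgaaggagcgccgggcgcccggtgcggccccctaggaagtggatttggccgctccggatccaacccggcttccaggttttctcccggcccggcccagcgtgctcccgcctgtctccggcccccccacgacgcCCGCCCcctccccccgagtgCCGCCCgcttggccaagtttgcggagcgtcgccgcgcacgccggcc

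RefSeq promoters were matched for 8 of the 10 members, SDC1 with 2 starts, and not for GPC3 and SDC2. The GC box was present in 42.6% of the 35116 promoter windows of this length. It was found 8 times in SDC4, 5 times in SDC3, 4 times in GPC1, 3 times in GPC2, 2 times each in GPC4 and GPC5 and 1 time at each start of SDC1, and it was not in the GPC6 window. GPC6 also had the fewest CpG dinucleotides of the matched members, 6 against a median of 11 over all windows, where SDC3 had 37, GPC1 36, GPC4 32, SDC4 26, GPC5 25, the SDC1 starts 21 and 23, and GPC2 19. The TATA box letters TATAAA, present in 10.7% of windows on either strand, were found in GPC6 and GPC5. The letters CCAAT, present in 32.0%, were found 2 times in GPC2 and in no other matched member. The HNF4 motif CAAAGTCCA, present in 0.325%, was in none of these windows. These matches describe letters in a window and were not tested for use.

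GPC3 and GPC4 are neighbours on chromosome X, as are GPC5 and GPC6 on chromosome 13, and only 1 gene of each pair was abundant in HepG2. Around GPC3 and GPC4, in the gene order of GENCODE release 29, HS6ST2 had 1 count in HepG2 and 93 in SKHEP1, USP26 and TFDP3 were at 0 in both lines, and CCDC160 had 0 counts in HepG2 against 14 in SKHEP1. PHF6, a chromatin protein gene, and HPRT1, an enzyme of purine salvage, were 3.12-fold and 2.75-fold higher in SKHEP1. None of these 6 flanking genes was higher in HepG2, whereas GPC3 itself was.

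Around GPC5 and GPC6, 1 of the 6 flanking genes was higher in HepG2, by less than 4-fold. The synaptic adhesion genes SLITRK6 and SLITRK5 had 0 counts in HepG2 and 100 and 68 in SKHEP1. SLITRK1 had 0 in HepG2 and 1 in SKHEP1, and GPR180 had 0 in HepG2 against 643 in SKHEP1. GPR180 was 235-fold higher in SKHEP1 against the count floor in HepG2 (exact lower limit 191). DCT was at 0 in both, and TGDS was 1.49-fold higher in HepG2 (interval 1.25 to 1.77). Of 15 listed genes that overlap a member or, in the case of SDC4P, copy it, 13 were at 0 counts in both libraries, the listed antisense transcripts of GPC5 and GPC6 among them. The others were AC110619.1 in GPC1, with an expected count of 0 in HepG2 and 1 in SKHEP1, and the pseudogene AL009174.1 opposite GPC3, with 8.46 in HepG2 and 7.40 in SKHEP1. Whether strand was used in counting is not known, so reads of such pairs cannot be told apart.

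**Figure D4:**
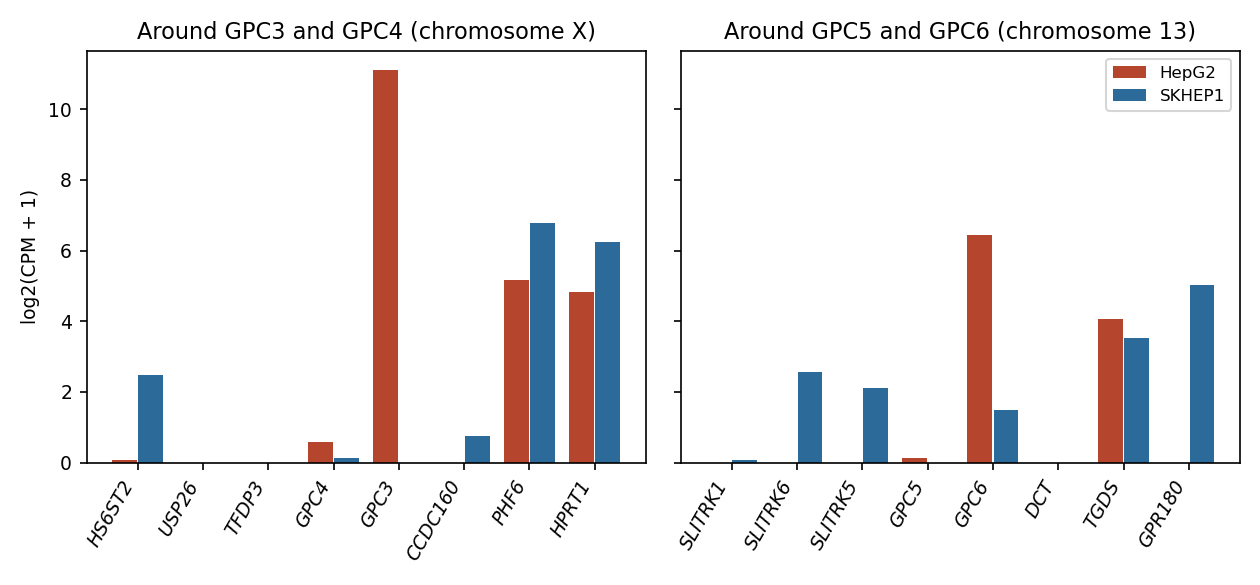
Level as log2(CPM + 1) in HepG2 and SKHEP1 for GPC3 and GPC4 (left) and GPC5 and GPC6 (right) with the 3 nearest protein-coding genes on each side, in gene order. GPC3 and GPC6 have the tallest HepG2 bars of their groups, while HS6ST2, SLITRK6, SLITRK5 and GPR180 have SKHEP1 bars and little or no HepG2 bar.

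The genes that build, modify, release and read heparan sulfate were examined in 15 lists, 117 genes in all. Of the 94 compared, 22 were higher in HepG2 (23.4%, against a background of 13.0%) and 19 in SKHEP1 (20.2%, against 16.5%), and 53 lay within 4-fold (56.4%, against 70.5% of all genes compared). Their median log2 ratio was -0.09, beside -0.03 over all genes compared. Large differences lay in both directions and within single steps, as follows.

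Of 6 compared enzymes of the linker between core protein and chain, all lay within 4-fold (median log2 ratio -0.11), and XYLT1 was at 0 in both. XYLT2, the xylosyltransferase that starts the chain, was at 10.6 TPM in HepG2 and 14.1 TPM in SKHEP1, and FAM20B, the xylose kinase, at 26.4 and 32.3 TPM. Of the 5 chain polymerase genes 1 was higher in SKHEP1 and 4 lay within 4-fold (median -0.78). EXT1, a subunit of the heparan sulfate polymerase, was 5.99-fold higher in SKHEP1 (interval 5.61 to 6.41), while its partner EXT2 was 1.25-fold higher there, so that EXT1 stood at 28.0 TPM in HepG2 and 177 TPM in SKHEP1 and EXT2 at 56.3 and 72.0 TPM. Of 6 chondroitin sulfate chain genes, 5 lay within 4-fold and CSGALNACT1 was higher in HepG2, at 66 counts in HepG2 against 1 in SKHEP1 (median -0.14). CHPF, a chondroitin polymerising factor, was 2.56-fold higher in HepG2.

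The sulfation enzymes differed in both directions. Of 16 listed, 9 were compared, with 3 higher in HepG2 and 2 in SKHEP1, while 4 lay within 4-fold (median 1.74). HS6ST1, a 6-O-sulfotransferase, was 17.8-fold higher in HepG2 (interval 15.6 to 20.4), at 84.7 TPM in HepG2 and 4.92 TPM in SKHEP1. HS3ST3B1, a 3-O-sulfotransferase, had 1456 counts in HepG2 against 1 in SKHEP1, a raw ratio of 1326 (interval 238 to 52416), and may share reads with its near copy HS3ST3A1. The 2-O-sulfotransferase HS2ST1 was 3.68-fold higher in HepG2. NDST1, which removes acetyl groups and adds N-sulfates at the start of modification, was higher in SKHEP1 by 4.24-fold (interval 4.07 to 4.42), at 27.5 TPM in HepG2 and 120 TPM in SKHEP1. HS6ST2, one of the genes flanking GPC3 and GPC4, was another 6-O-sulfotransferase gene and lay higher in SKHEP1, at 1 count in HepG2 against 93 in SKHEP1. By TPM it stood below HS6ST1 there all the same, at 1.81 against 4.92.

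Donor supply also differed in both directions. Among 9 genes that make or transport sugar nucleotides and the sulfate donor PAPS, HepG2 was higher for 2 and SKHEP1 for 1, with 6 inside the 4-fold limit (median 1.14). UGDH, which makes UDP-glucuronate for the chains and for hepatic conjugation, was 13.3-fold higher in HepG2 (interval 12.4 to 14.3), at 371 TPM in HepG2 and 31.6 TPM in SKHEP1. SLC35D2, a Golgi nucleotide sugar transporter, was 5.11-fold higher in HepG2. Of the PAPS synthases, PAPSS2 had 3 counts in HepG2 against 4255 in SKHEP1, 1557-fold higher in SKHEP1 (interval 532 to 7554). PAPSS1 was expressed in both, 2.21-fold higher in HepG2, and the summed level of the pair was 65.0 TPM in HepG2 and 129 TPM in SKHEP1.

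Of the genes that act on glypicans after synthesis, those compared for release of the GPI anchor were higher in HepG2. The 5 genes of GPI anchor attachment all lay within 4-fold (median -0.36); PIGT was at 84.9 TPM in HepG2 and 94.6 TPM in SKHEP1. Of 4 genes of anchor release, 3 were compared and all 3 were higher in HepG2, against 13.0% of all genes compared (median 5.29). NOTUM, an extracellular hydrolase that inactivates Wnt proteins by removing their lipid, is also reported to cut glypican anchors. It had 3202 counts in HepG2 against 0 in SKHEP1, so it could not be counted as higher in SKHEP1. Against 3 counts in SKHEP1, NOTUM was 972-fold higher in HepG2 (exact lower limit 790). GDPD5, a phosphodiesterase reported to release glypican-6, was 39.1-fold higher in HepG2 (interval 25.7 to 62.7), and GPLD1, a plasma GPI-specific phospholipase made by the liver, 4.50-fold (interval 3.06 to 6.80). Of 4 genes for extracellular editing of chains, SULF2, a sulfatase that removes 6-O-sulfates, was 35.2-fold higher in HepG2 (interval 27.1 to 46.5), and HPSE, or heparanase, which cuts the chains, had 2 counts in HepG2 against 85 in SKHEP1. SULF1 and HPSE2 were under 10 counts in both lines, and the median of the compared pair was 0.09.

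Proteases that process the core proteins split between the lines. Of 8 compared, 2 were higher in HepG2 (25%, against 13.0% of all genes compared) and 2 in SKHEP1 (25%, against 16.5%). The other 4 lay within 4-fold (median -0.32). FURIN, the convertase that cleaves glypican-3, was 2.39-fold higher in HepG2, and the related convertase gene PCSK6 had 3069 counts in HepG2 against 0 in SKHEP1. Against 3 counts in SKHEP1, PCSK6 was 932-fold higher in HepG2 (exact lower limit 757). PCSK5, the other gene counted as higher in HepG2, had 21 counts in HepG2 against 1 in SKHEP1. Its raw ratio was 19.1 (interval 3.08 to 791). MMP14, a membrane metalloproteinase that sheds syndecan-1, was higher in SKHEP1 by 55.7-fold (interval 48.7 to 63.9), at 4.27 TPM in HepG2 and 247 TPM in SKHEP1, and MMP9 had 0 counts in HepG2 against 201 in SKHEP1. PCSK6 and PCSK5 were under 10 counts in SKHEP1 and MMP9 in HepG2, so each could be counted as higher in 1 line only. The sheddase ADAM10 was at 72.8 TPM in HepG2 and 77.1 TPM in SKHEP1.

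Of 7 partners of the syndecan tail, 1 was higher in SKHEP1 (14.3%, against 16.5% of all genes compared) and 6 lay within 4-fold. Their median log2 ratio of -1.17 lay on the SKHEP1 side. SDCBP, or syntenin, which binds the tails of all syndecans and sorts them to exosomes, was 2.25-fold higher in SKHEP1 (interval 2.10 to 2.40), and PDCD6IP, its partner ALIX, 1.41-fold. CASK and GIPC1, which bind syndecan tails through PDZ domains, were 3.07-fold and 2.82-fold higher in SKHEP1. TIAM1, a Rac exchange factor that binds syndecan-1, had 4 counts in HepG2 against 872 in SKHEP1, 239-fold higher in SKHEP1 (interval 93.1 to 880).

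**Figure D5:**
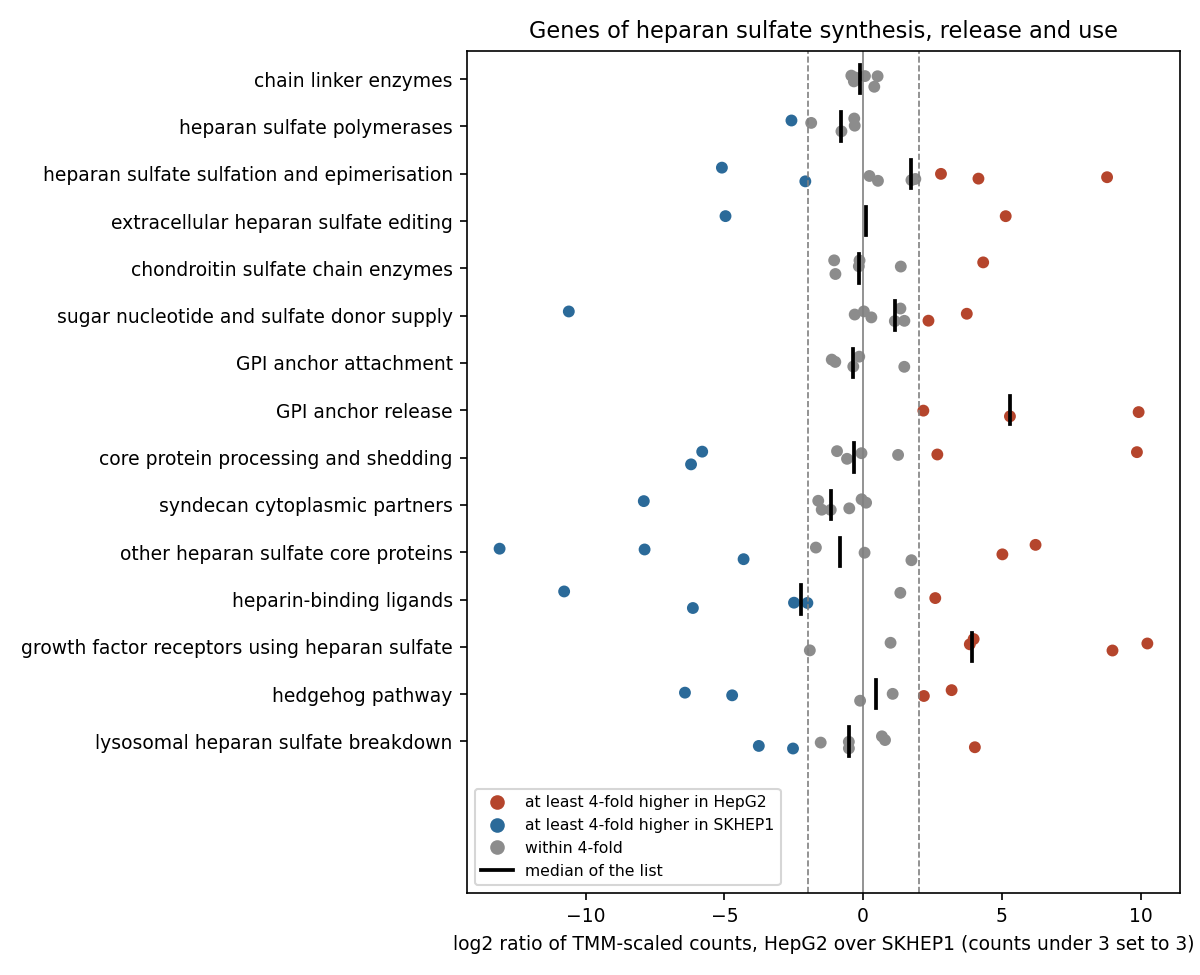
Log2 ratios of TMM-scaled counts, HepG2 over SKHEP1, for the compared genes of 15 lists of heparan sulfate synthesis, release and use, with 1 point per gene, the median of each list as a bar and the 4-fold limits dashed. The linker and GPI attachment lists lie wholly within 4-fold, while all 3 anchor release genes lie on the HepG2 side.

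Other core proteins that can carry heparan sulfate showed the widest spread. Of 8 compared, 2 were higher in HepG2 and 3 in SKHEP1, while 3 lay within 4-fold (median -0.83). The hyaluronan receptor CD44, of which some splice forms carry heparan sulfate, stood at 0.76 TPM in HepG2 and 1468 TPM in SKHEP1, from 6 and 47924 counts. TGFBR3, or betaglycan, the TGF-beta co-receptor, was 32.4-fold higher in HepG2 (interval 26.9 to 39.3). Of the testicans, SPOCK2 had 244 counts in HepG2 against 0 in SKHEP1, and SPOCK1 had 4 in HepG2 and 855 in SKHEP1. COL18A1, a basement membrane proteoglycan, was 3.34-fold higher in HepG2. By TPM, then, the most abundant core protein gene of those examined was GPC3 in HepG2 and CD44 in SKHEP1, at 1811 and 1468 TPM.

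Among the ligands and receptors that use these chains, FGFR2, FGFR3 and FGFR4 were higher in HepG2, and the ligands FGF1 and FGF2 in SKHEP1. FGFR1 lay within 4-fold, at 86.5 TPM in HepG2 and 48.2 TPM in SKHEP1, where it was the most abundant FGF receptor listed. Of 6 compared heparin-binding ligands, 1 was higher in HepG2 (16.7%, against 13.0% of all genes compared) and 4 in SKHEP1 (66.7%, against 16.5%). The remaining 1 lay within 4-fold (median -2.25). HGF, counted as higher in SKHEP1, had 0 counts in HepG2 against 11 in SKHEP1. Against 3 counts in HepG2 it was 4.03-fold higher in SKHEP1 (exact lower limit 2.76), at the edge of the limit. With DESeq2 size factors, TPM or FPKM, 3 ligands were higher in SKHEP1. FGF2 had 2 counts in HepG2 against 4781 in SKHEP1, 2625-fold higher in SKHEP1 as a raw ratio (interval 726 to 21678), and FGF1 had 0 counts in HepG2 against 192 in SKHEP1. HBEGF was 5.62-fold higher in SKHEP1. MDK, or midkine, was 6.05-fold higher in HepG2 (interval 5.45 to 6.74), at 305 TPM in HepG2 and 51.3 TPM in SKHEP1. The 6 receptor genes comprised 4 past the 4-fold limit on the HepG2 side and 2 inside it (median 3.91). Of the 4, KLB and FGFR2 had 0 counts in SKHEP1 and FGFR3 had 6, so they could not be counted as higher there. Likewise FGF1, FGF2 and HGF were under 10 counts in HepG2 and could not be counted as higher in HepG2. FGFR4, the main hepatocyte FGF receptor, was at 207 TPM in HepG2 and 14.5 TPM in SKHEP1, and KLB, its co-receptor beta-klotho, had 3982 counts in HepG2 against 0 in SKHEP1. FGFR3 was 506-fold higher in HepG2 (interval 232 to 1380), and MET 3.79-fold higher in SKHEP1.

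Hedgehog genes, whose ligands bind glypican-3, split between the lines. Of 6 compared, 2 were higher in HepG2 and 2 in SKHEP1, while 2 lay within 4-fold (median 0.48). SMO, the signal transducer, was at 27.0 TPM in HepG2 and 12.9 TPM in SKHEP1, and the receptor PTCH1 at 2.54 and 2.66 TPM. The transcription factor GLI3 had 0 counts in HepG2 against 234 in SKHEP1. Of 8 lysosomal enzymes of heparan sulfate breakdown, 1 was higher in HepG2 (12.5%, against 13.0% of all genes compared) and 2 in SKHEP1 (25%, against 16.5%). The other 5 lay within 4-fold (median -0.51). The iduronate sulfatase IDS was 5.76-fold higher in SKHEP1 (interval 5.20 to 6.40), and ARSG, another sulfatase, was 16.3-fold higher in HepG2 (interval 8.04 to 38.4). The glucosaminidase NAGLU was at 38.2 TPM in HepG2 and 22.9 TPM in SKHEP1.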

How the data were processed

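RNA-seq gene tables of HepG2 and SKHEP1 were used, with 1 library per line, grouped by the cell line label. The build was hg19, and RSEM, STAR, cutadapt and DESeq2 are the tools listed, per the submitters' processing notes. Versions, annotation and RSEM's strand setting were not given in the sources used. Per the file headers, the deposited values are an expected count per gene, estimated by RSEM, and TPM and FPKM values, with the isoform-weighted length and other length columns.

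Expected counts were rounded and scaled with TMM in edgeR 4.0.16 (R 4.3.3). Comparison needed 10 expected counts in HepG2 or SKHEP1, a count under 3 being set to 3 for the call. Where a library had 0 counts, any fold given is against 3 counts, with the exact lower limit of the ratio beside it. With 1 to 3 counts the raw ratio is given. Intervals are exact Poisson for levels and exact conditional (Clopper-Pearson) for ratios. Members and lists were chosen with earlier results of these data known. The genes named were all members, per list up to 4 with the largest ratios and at least 100 counts in the higher line, the most abundant gene per line, the 3 flanking protein-coding genes on each side and the 3 genes closest in level to 2 members. The endothelial markers given by gene, FGFR2, HS3ST3A1, CSGALNACT1, XYLT1, SULF1, HPSE2, MBNL3, C4A and genes overlapping members were also named, after their values were seen, and some genes the rule takes are summarised in counts alone. FGFR1, PCSK5, HGF and HS3ST5 were likewise named after their values were seen. Gene types, chromosomes and gene order came from GENCODE release 29. List genes were matched by stable identifier. Alternatives tried were DESeq2 1.42.0 size factors or total counts, deposited TPM or FPKM, a prior count of 2, unrounded counts, minimums of 50 and 1 and limits of 2-fold and 8-fold. The calculation was tested on simulated counts. Other software was matplotlib 3.10.9, scipy 1.17.1, pandas 2.3.3 and numpy 2.4.6 under Python 3.11.15.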

Additional observations from a re-analysis of the deposited data

How the results depend on the processing

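The 3 members higher in HepG2 and the 1 higher in SKHEP1 kept these counts under total counts, DESeq2 size factors, TPM, FPKM, a prior count of 2, unrounded counts, minimums of 50 and 1 and the 8-fold limit. With a 2-fold limit, 4 members were higher in HepG2 and 2 in SKHEP1, and 3614 and 3859 genes of all compared. With an 8-fold limit, 1258 genes were higher in HepG2. Log2 ratios kept their direction in all 6 other settings for every member with a ratio except GPC2, on 5 and 4 counts, which ran from -1.55 to 0.23. Outside their counting intervals lay SDC1 from TPM (-1.03) and SDC4 from FPKM (-0.09). GPC3 ranged from 13.63 to 14.44, SDC2 from 8.51 to 9.46, GPC6 from 5.49 to 5.60 and SDC3 from -6.32 to -6.18. From TMM-scaled counts per kilobase the syndecan sum ratio was 1.32 and the glypican sum ratio 127, beside 1.27 and 123 from TPM. Both measures rest on the same counts and lengths and differ in how the libraries were scaled. All 136 list counts under other scalings or units stayed within 1.5 times their values. The heparin-binding ligands higher in SKHEP1 went from 4 to 3 with DESeq2 size factors, TPM or FPKM. Sulfation genes higher in HepG2 went from 3 to 4 with TPM or FPKM. Depth limits GPC2, GPC4 and GPC5. No paired analysis was possible because each line has 1 library.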

Other observations

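MBNL3, a splicing regulator gene chosen after its values were seen, is next to HS6ST2 among protein-coding genes, on the side away from GPC4, and lies beyond the flanking genes described above. It had 15398 counts in HepG2 against 34 in SKHEP1, which was 412-fold higher in HepG2 (interval 295 to 596), and levels of 170 TPM in HepG2 and 0.39 TPM in SKHEP1. The protein-coding genes between it and GPC3, namely HS6ST2, USP26, TFDP3 and GPC4, had 1, 0, 0 and 11 counts in HepG2. HS6ST2 was at 93 counts in SKHEP1, higher than in HepG2.

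The isoform-weighted length of SDC4 was 2347 bases in HepG2 and 2520 bases in SKHEP1, from 3544 and 3614 counts, while that of SDC1 was 3149 and 3131 bases. The tables used here give no transcript-level counts, so which transcripts differ was not analysed here.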
